A study of Mus musculus with 3 samples.

Results

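The potassium channel genes were taken as every gene probe whose name in the scanner files begins with Kcn, the stem of mouse potassium channel symbols followed by a family letter. The rule found 84 genes on 123 of the 41174 gene probes, out of 27667 genes in all. Each gene was read from its brightest probe. By family, 36 members encode pore-forming subunits of voltage-gated channels, 12 their auxiliary subunits, 14 inward rectifiers, 10 two-pore channels, and 11 calcium-activated channels with their relatives and auxiliary subunits. The remaining member, Kcnq1ot1, is a noncoding RNA made from the Kcnq1 locus. Mouse embryonic stem (ES) cells, the pluripotent cells of the early embryo kept in culture, were compared with mouse embryonic fibroblasts (MEF) on 3 two-colour 60-base oligonucleotide arrays. A single ES cell replicate, labelled with the green dye Cy3, shared each array with MEF RNA labelled with the red dye Cy5. The ES cells grew in Knockout DMEM with defined serum, non-essential amino acids, L-glutamine, 2-mercaptoethanol and leukemia inhibitory factor, which maintains self-renewal. The MEF grew in DMEM with heat-inactivated serum and non-essential amino acids, and both were untreated. The labels name no ES cell line, mouse strain or passage, and do not say whether MEF lay beneath the ES cells as feeders.

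Potassium channels let potassium leave the cell down its gradient and so hold the membrane potential negative. Two-pore channels leak at rest, and inward rectifiers pass potassium inward more readily than outward. Voltage-gated channels open when the membrane is depolarised, and calcium-activated channels follow the calcium level inside the cell. Many assemble with auxiliary subunits that set their gating or carry them to the surface. Dividing cells that fire no action potentials use them too, to set cell volume, calcium entry and membrane potential.

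The feature that joins the pore-forming families is the selectivity filter, a short loop with the residues TVGYG or a close variant. The pattern sought in the translated probes was T, any residue, G, Y or F, then G, and variants outside it were not sought. Of the 123 probes of the members, 1 holds it, the probe of Kcna3 (the Kv1.3 channel of lymphocytes). Of 41051 other gene probes, 13 hold the pattern too. The Kcna3 probe lies at chr3:106855883-106855942 on the plus strand of mouse build mm7. It is shown here because it spells out the part of the protein that gives these genes their name, with the 5 filter codons in capitals.
Kcna3: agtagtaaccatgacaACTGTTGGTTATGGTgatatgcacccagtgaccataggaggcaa
The capitals, bases 17 to 31, translate to TVGYG, and the frame they set holds no stop codon in 19 residues. The Kcna3 probe was not well above background in either channel on any array, with spot signals of 117, 118 and 92.2 in ES cells and 117, 116 and 92.4 in MEF.

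Promoters are shown next for the members at the ends of the range of ratios, to set their start sites side by side. Each line holds the 150 bases just before the start of transcription, from RefSeq on GRCm38.p6. The lines show Kcnk5 (chr14:20181783-20181932, minus strand), the member with the highest ratio, Kcnmb4 (chr10:116473524-116473673, minus strand), the member with the lowest, and Kcnj15 (chr16:95257408-95257557, plus strand), a called member with few CpG dinucleotides. Capitals mark the GC box, GGGCGG or its reverse complement CCGCCC.
Kcnk5: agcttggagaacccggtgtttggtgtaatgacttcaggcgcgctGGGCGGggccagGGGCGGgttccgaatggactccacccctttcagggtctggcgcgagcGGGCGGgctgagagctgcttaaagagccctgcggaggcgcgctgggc
Kcnmb4: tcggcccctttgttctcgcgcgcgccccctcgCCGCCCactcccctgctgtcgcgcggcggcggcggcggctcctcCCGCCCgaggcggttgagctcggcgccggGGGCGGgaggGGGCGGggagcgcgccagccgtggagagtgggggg
Kcnj15: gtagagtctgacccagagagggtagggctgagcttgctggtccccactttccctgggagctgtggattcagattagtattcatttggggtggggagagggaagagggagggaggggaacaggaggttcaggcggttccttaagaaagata
The stretch of Kcnk5 held 3 GC boxes and 13 CpG, that of Kcnmb4 held 4 GC boxes and 25 CpG, and that of Kcnj15 held 0 GC boxes and 1 CpG. The members at the opposite ends both had GC boxes. Kcnj15 was picked for its few CpG, so its difference from Kcnmb4, also lower in ES cells, was set by that choice. Of the 84 members, 62 were matched to 86 windows of 300 bases around a start. The median CpG count of a window was 10 for members called higher, but these were only 7 windows of 5 genes. It was 9 for members called lower (28 windows of 18 genes) and 9 for members tested and not called (21 windows of 17 genes). Over all 32851 windows of the table it was 7. A GC box on either strand was in 48.8% of member windows and 35.7% of all windows, and TATAAA on either strand in 4.65% and 13.6%. The octamer ATGCAAAT, bound by POU factors such as the pluripotency factor encoded by Pou5f1, was in 1.16% of member windows and 1.74% of all windows on either strand. A match describes letters only, and genes with several start sites entered with each.

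Ratios below are log2 of ES cells over MEF, so a negative value is a lower signal in ES cells, given as mean ± SD over the 3 arrays. Signals named for single arrays are the mean spot brightness in scanner units before background correction, in the order of replicates 1, 2 and 3, and are never compared between genes. A gene was tested if its probe was well above background on all 3 arrays in at least 1 channel, by the scanner software's own test, and was called at an adjusted p under 0.05 with a ratio of at least 2-fold. Whether the ES cell replicates were separate cultures is not in the labels, so every p-value reflects only how the arrays vary, and this variation may be technical. The MEF count as 1 control sample whose own spread is left out, and with no dye swap a bias of either dye for a probe stays in its ratio. In bulk RNA, fewer cells of a type and less RNA per cell cannot be told apart.

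Over all genes the arrays agreed closely, with a correlation of log2 ratios across genes of 0.998 for each pair and a median SD of 0.028. The share of gene spots well above background was 68.6% to 70.6% for ES cells and 68.2% to 74.0% for MEF. Marker genes followed the labels in direction. All 6 ES cell markers were higher in ES cells (Pou5f1, Nanog, Zfp42, Esrrb, Tdgf1 and Dppa5a, median 3.86) and all 6 fibroblast markers lower (median −6.07). Every marker of both sets was still above background in both channels on every array. Summed normalized signals of the ES cell markers were 855672 to 876468 in ES cells and 45065 to 48079 in MEF. Those of the fibroblast markers were 63806 to 67371 in ES cells and 1718740 to 1755555 in MEF. The source of the ES cell marker signal in the MEF channel was not tested. Markers of some other cell types were lower in ES cells too. All 5 macrophage markers were lower (summed normalized signal 4030 to 4184 in ES cells against 91759 to 96954 in MEF), as were all 5 smooth muscle markers (38578 to 40208 against 518433 to 524698) and 3 of 4 glial markers (2797 to 2863 against 9639 to 10170). The astrocyte marker Gfap was not well above background in ES cells on any array, nor were Snap25 of neurons and Myh6 of striated muscle in MEF. Of 6 neuronal markers 1 was higher and 1 lower (18557 to 19080 in ES cells against 7993 to 8120 in MEF), of 5 striated muscle markers 2 were higher and 2 lower (2021 to 2039 against 4044 to 4149), and of 3 endothelial markers tested 2 were higher and 1 lower (2847 to 2887 against 1241 to 1244). The part of these cell types in the channel ratios was not tested.

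Of the 84 potassium channel genes, 53 were bright enough to be tested (63.1%, against 70.4% of all genes). The test called 8 members higher in ES cells and 19 lower. Over all 19477 genes tested, 20.4% were called higher and 22.4% lower, against 15.1% and 35.8% of the tested members. A member that was bright in 1 cell type only could pass the filter through that channel alone, so these shares are given as a description. The median ratio of the tested members was −0.05, the same as that of all genes tested. The members thus spread to both sides. Of the 53, 13 were called lower in ES cells by at least 4-fold and 2 higher by that much, where over all genes tested 9.61% were lower and 6.75% higher. All 27 called members had 1 sign on all 3 arrays, which the 2-fold minimum largely ensures on arrays that agree closely. Of the 27, 15 passed the background test for both cell types on every array. Among the 53 tested members 31 passed in this way, and among all 19477 genes tested 16941. The share over all called genes was not counted. Of the 26 tested members that were not called, 20 had an adjusted p under 0.05 with a measured ratio under 2-fold. Over all genes 95.5% had such a p, so the fold minimum sets the calls. With the scanner software's processed signals, which carry no offset against dim values, 13 members were called higher and 20 lower, beside 26.3% and 24.0% of all genes. With both channels required above background the counts were 5 and 10, beside 19.8% and 22.4% of the genes then tested.

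**Figure D1:**
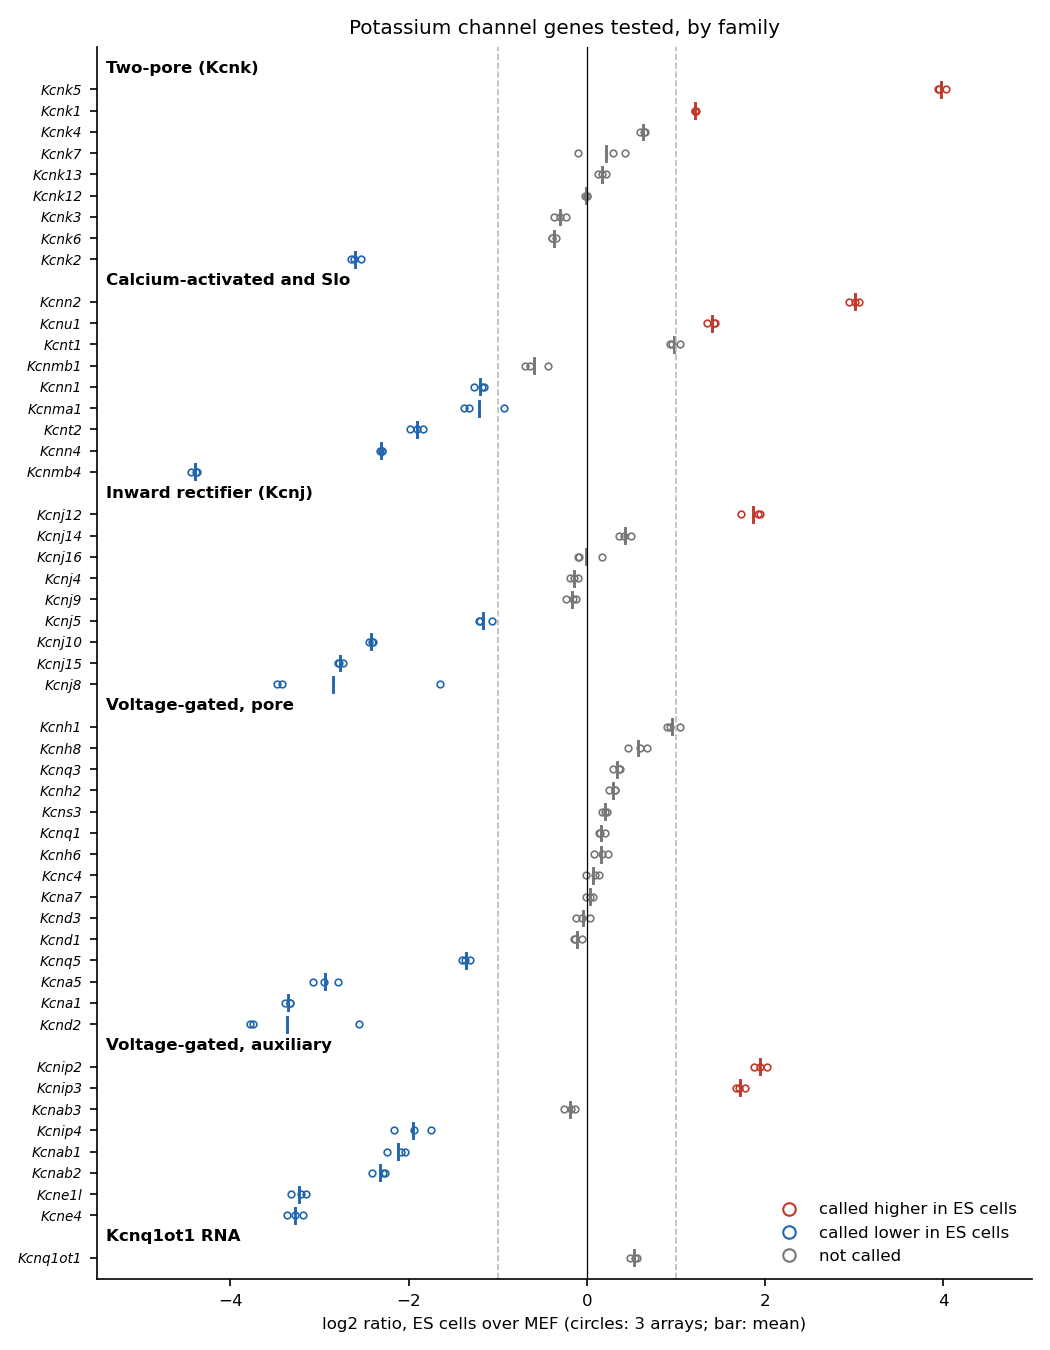
Log2 ratio of ES cells over MEF (x axis) for 51 of the 53 tested potassium channel genes (y axis), grouped by family. Circles are the 3 arrays, bars their mean, dashed lines the 2-fold minimum; red is called higher in ES cells, blue called lower, grey not called. The ratios run from −4.40 for Kcnmb4 to 3.98 for Kcnk5, and Kcnj8 and Kcnd2 have 1 array apart from the other 2.

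Detection differed by family. All channels but 1 of the two-pore family were tested (9 of 10), and 9 of 11 of the calcium-activated family. Only 17 of 36 pore-forming voltage-gated genes were tested, and 12 of the 17 members whose brightest probe was not well above background in either channel on any array belonged to that family. Of the 17, only Kcng3 had another probe that passed, in ES cells on 1 array. These 12 included Kcna2, Kcna3 and Kcna6 of the Kv1 group and the silent subunit genes Kcnf1, Kcng3, Kcng4, Kcnv1 and Kcnv2. By its coordinates the only Kcna6 probe lies on the plus strand, while the Kcna6 promoter window lies on the minus strand. The lack of signal at that probe thus need not tell of Kcna6 RNA. Another 14 members passed on some arrays only and were not tested. Of the tested members, 31 passed for both cell types on every array, 3 (Kcnh1, Kcnj14 and Kcnk4) in ES cells only, and 6 (Kcna1, Kcna5, Kcnip4, Kcnj5, Kcnma1 and Kcnmb1) in MEF only. Of the 6 seen in MEF only 5 were called lower, and of the 3 seen in ES cells only none was called, although all 3 were called higher with the scanner software's processed signals. Such members passed the filter through their brighter channel alone, which sets the direction of any call. Genes outside the members were not counted in this way, so these counts are only a description. Kcnj14, Kcnk4 and Kcnh1 were at least 1.35-fold, 1.51-fold and 1.85-fold higher in ES cells. The level set against them was the lowest MEF signal that passed the background test, or the probe's own if higher. For Kcnj14 it was the probe's own signal, so 1.35-fold is also its measured ratio.

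**Figure D2:**
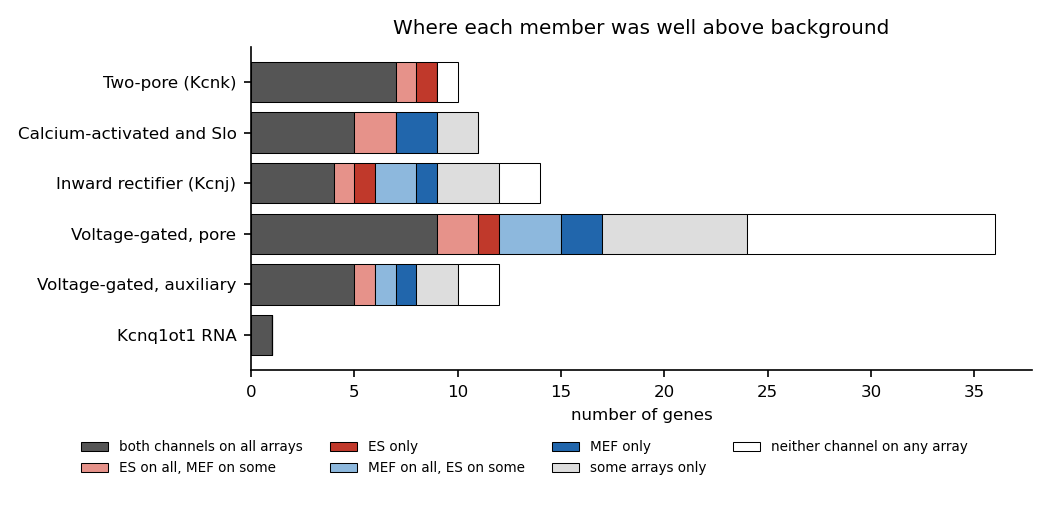
Number of potassium channel genes (x axis) in each family (y axis), by the channels and arrays in which the brightest probe was well above background. The 12 white genes in the row of voltage-gated pore subunits make up most of the 17 members whose brightest probe was not above background anywhere.

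In the two-pore family, Kcnk5 and Kcnk1 were called higher in ES cells, Kcnk2 was called lower, and 6 of the 9 tested members were not called (family median 0.17). The shares to set beside this and the later family counts are 20.4% higher and 22.4% lower over all genes tested. Kcnk5 (TASK-2), a background channel opened by alkaline pH, had the highest ratio of all members. Its spot signal was 4750, 4756 and 4772 in ES cells and 269, 259 and 264 in MEF. The ratios of 3.94, 4.03 and 3.96 averaged 3.98 ± 0.049, a 15.8-fold difference (adjusted p = 1.90e-07, limma). The groups lay far apart on every array. The probe lies at chr14:17798444-17798503 (mm7, minus strand), and a second, dimmer probe of Kcnk5 was also called higher, at 1.36 ± 0.60 (adjusted p = 0.0062 over all probes). At that second probe MEF was above background on 1 array. Kcnk1 (TWIK-1), a weakly conducting background channel, read 8335, 8198 and 8096 in ES cells and 3139, 3112 and 3113 in MEF. Both cell types thus gave a bright signal, and the difference of 1.22 ± 0.0055 (adjusted p = 4.25e-07) had the smallest SD of the called members.

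Kcnk2 (TREK-1), opened by membrane stretch and fatty acids, went the other way. Its signal was 147, 143 and 139 in ES cells and 759, 798 and 806 in MEF. The ratio was −2.60 ± 0.059, or 6.05-fold lower in ES cells (adjusted p = 5.18e-07). The other two-pore genes were not called. Kcnk6 (TWIK-2) had a ratio of −0.37 ± 0.024 and Kcnk13 (THIK-1) of 0.17 ± 0.043, both well above background in both channels. Kcnk12 (THIK-2), a subunit known as nearly silent on its own, had −0.01 ± 0.015 with an adjusted p of 0.68.

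In the calcium-activated family and its Slo relatives 5 of 9 tested members were called lower in ES cells and 2 higher, with a median ratio of −1.20. Over all genes tested 22.4% were lower and 20.4% higher. Kcnmb4, the beta4 auxiliary subunit of the large-conductance BK channel, had the lowest ratio of all members. Its signal was 449, 443 and 391 in ES cells and 8208, 8109 and 7787 in MEF. The ratios of −4.38, −4.39 and −4.44 averaged −4.40 ± 0.033, or 21.1-fold lower in ES cells (adjusted p = 1.59e-07). The pore subunit of the same channel, Kcnma1, was dim in both cell types, at 144, 98.7 and 75.6 in ES cells and 244, 227 and 197 in MEF. It was not well above background in ES cells on any array, so its difference is a bound: at least 1.88-fold lower in ES cells (measured mean log2 signals 6.63 and 7.84, adjusted p = 0.00041). When the test asked whether the ratio exceeds 2-fold (limma's treat) in place of 0, Kcnma1 was no longer called. Like the bounds above and below, this one sets the brighter mean against the dimmest signal that passed the background test or the probe's own, whichever was higher. The smooth muscle subunit gene Kcnmb1 was likewise seen in MEF only, at least 1.29-fold lower in ES cells, and was not called (measured ratio −0.59 ± 0.14), but was with the processed signals (−2.06).

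The small-conductance channels, which calcium opens through bound calmodulin, split. Kcnn2 (SK2) was higher in ES cells, with signals of 2109, 2119 and 2082 against 225, 227 and 229 in MEF. The ratio was 3.01 ± 0.054, an 8.04-fold difference (adjusted p = 3.26e-07). Kcnn2 is 1 of 2 members whose probe was printed 10 times on each array, with Kcnj6, which was too dim to be tested. The SD of 0.054 between arrays compared with 0.021 expected from the spread of the Kcnn2 spots within an array. For Kcnj6 the order was the other way, 0.018 against 0.030, and over all 245 probes printed 10 times the medians were 0.0176 and 0.0173. Its second probe, spotted once, was called higher too, at 1.58 ± 0.023 (adjusted p = 4.51e-07 over all probes), though not above background in MEF on any array. Kcnn1 (SK1) was lower in ES cells, at −1.20 ± 0.062 (adjusted p = 5.11e-06).

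Kcnn4, the intermediate-conductance channel known from red cells, T cells and fibroblasts, was also lower. It read 662, 645 and 612 in ES cells and 2901, 2823 and 2816 in MEF, a ratio of −2.31 ± 0.014 or 4.95-fold (adjusted p = 1.82e-07). Of the sodium-activated Slo channels, Kcnt2 was lower at −1.91 ± 0.073 (adjusted p = 1.97e-06), and its second probe was called lower as well, at −1.51 ± 0.0056. Kcnt1 stood just below the 2-fold minimum at 0.98 ± 0.061 and was not called, with MEF above background on 1 array. It was called higher with normexp offset 0 (1.35), without background subtraction (1.03), with median centring (1.04), with the processed signals or the authors' value table (1.94), and without replicate 1 (1.00). Kcnu1 (Slo3), best known as the pH-gated channel of sperm, was higher in ES cells. It read 331, 312 and 299 in ES cells and 108, 106 and 103 in MEF, where it was well above background on 1 array, and its ratio was 1.41 ± 0.047 (adjusted p = 1.63e-06).

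Among the inward rectifiers 4 of 9 tested members were called lower in ES cells, 1 higher and 4 neither, with a median of −0.17. Over all genes tested 22.4% were lower and 20.4% higher. Kcnj12 (Kir2.2), a strong rectifier of excitable cells, was higher. It read 504, 457 and 499 in ES cells and 133, 107 and 114 in MEF, where 1 array of 3 passed the background test, and its ratio was 1.87 ± 0.12 (adjusted p = 8.44e-06). Kcnj15 (Kir4.2) read 414, 415 and 417 in ES cells and 2559, 2579 and 2582 in MEF, a ratio of −2.77 ± 0.031 or 6.82-fold (adjusted p = 2.06e-07). Kcnj10 (Kir4.1), the main glial rectifier, read 305, 302 and 307 in ES cells and 1466, 1452 and 1521 in MEF, a ratio of −2.42 ± 0.028 or 5.35-fold (adjusted p = 2.28e-07). Its partner Kcnj16 (Kir5.1) had a ratio near 0, at −0.01 ± 0.16 (adjusted p = 0.94). On array 2 Kcnj16 was brighter in both channels (523 in ES cells and 419 in MEF) than on arrays 1 and 3 (162 and 134 in ES cells, 150 and 137 in MEF).

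Kcnj8 (Kir6.1), the pore of the vascular ATP-sensitive channel, was lower in ES cells by −2.85 ± 1.04 (adjusted p = 0.0035). Its ES cell signals of 437, 101 and 96.3 set array 1 apart, while MEF gave 1235, 989 and 1013. ES cells were well above background on 1 array of 3. The ratios were −1.65, −3.47 and −3.42, the widest spread of any called member, and the groups did not overlap. Without replicate 1 the mean was −3.45, and Kcnj8 was still called. The sulfonylurea receptor gene Abcc9, whose product surrounds that pore, was not above background in ES cells on any array and was at least 1.60-fold lower (measured means 6.35 and 7.45, adjusted p = 4.56e-05). Kcnj5 (Kir3.4), a G protein-gated rectifier of heart muscle, was at least 1.46-fold lower (measured means 6.16 and 7.31, adjusted p = 1.18e-05).

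**Figure D3:**
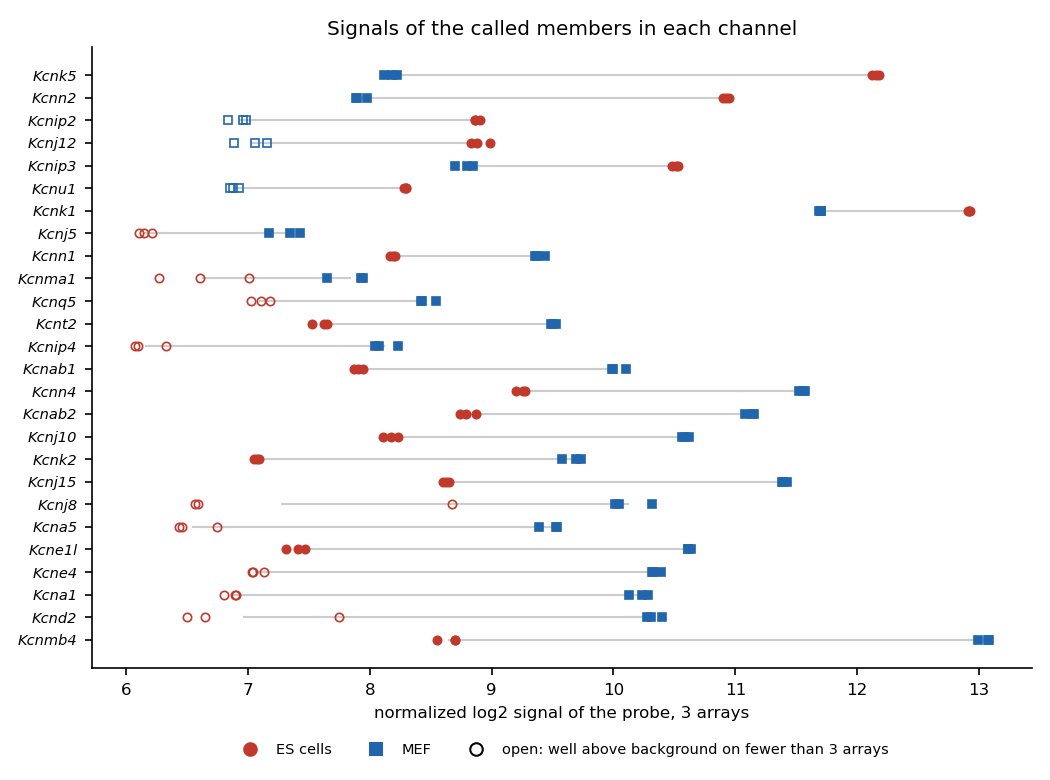
Normalized log2 signal (x axis) of 26 of the 27 called members (y axis, ordered by ratio) on the 3 arrays, with ES cells as red circles and MEF as blue squares; open symbols mark a channel that was well above background on fewer than 3 arrays, and grey lines join the means. Kcnk1 is bright in both cell types, whereas Kcnj5, Kcnma1, Kcnip4, Kcna5 and Kcna1 have no ES cell array above background.

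Of the pore-forming voltage-gated genes 4 of 17 tested were called lower in ES cells, 1 higher and 12 neither, and the median ratio was 0.16. The share called lower was thus near the 22.4% of all genes tested, of which 20.4% were called higher. The 4 called lower, Kcna1, Kcna5, Kcnd2 and Kcnq5, passed the filter through MEF alone, so this share is only a description. Kcnd2 (Kv4.2), which carries fast transient A-type current, read 228, 107 and 94.3 in ES cells and 1232, 1265 and 1228 in MEF. The ratios were −2.56, −3.75 and −3.78, with a mean of −3.36 ± 0.70 (adjusted p = 0.00046). The ES cell channel passed the background test on 1 array. The second Kcnd2 probe, not above background in ES cells on any array, gave −3.41 ± 0.18 and was called too. Kcna1 (Kv1.1) read 131, 125 and 122 in ES cells and 1115, 1172 and 1185 in MEF. It was not above background in ES cells and was at least 10.0-fold lower there (measured means 6.87 and 10.22, adjusted p = 1.79e-07). Kcna5 (Kv1.5), a delayed rectifier of atrial and vascular muscle, read 92.6, 113 and 88.1 in ES cells against 667, 696 and 731. It was at least 6.56-fold lower (measured means 6.55 and 9.48, adjusted p = 3.29e-06).

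Kcnq5 (Kv7.5), a carrier of the slow M current, was lower by a smaller amount, at −1.36 ± 0.046 (adjusted p = 1.76e-06). ES cells were above background at its probe on 2 arrays.

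The other 12 tested members of the family were not called. Kcna7 (Kv1.7) read 631, 618 and 581 in ES cells and 546, 566 and 522 in MEF, a ratio of 0.03 ± 0.041 (adjusted p = 0.18). Kcnh2 (ERG1, the rapid delayed rectifier of heart) was at 0.30 ± 0.042 and the silent subunit gene Kcns3 at 0.20 ± 0.027, both above background in both channels on every array. Kcnh1 (EAG1), not above background in MEF, has the bound given above and a measured ratio of 0.96 ± 0.073. It was called higher with the processed signals or the authors' value table (2.59), normexp offset 0 (1.51) and no background subtraction (1.01).

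The auxiliary subunits of voltage-gated channels had the lowest median of the families, −2.04, with 5 of 8 tested members called lower in ES cells and 2 higher. Over all genes tested 22.4% were lower and 20.4% higher. Of the members in this median, Kcne4 and Kcnip4 passed the filter through MEF alone and Kcnip2 through ES cells alone. Both single-pass MinK-related genes that were tested were lower. Kcne4, an inhibitor of several Kv channels, read 155, 139 and 135 in ES cells and 1253, 1263 and 1252 in MEF. Its ratio was −3.28 ± 0.088 (adjusted p = 6.91e-07), with ES cells above background on 1 array. Kcne1l read 185, 166 and 171 against 1528, 1501 and 1526, a ratio of −3.23 ± 0.091 or 9.36-fold (adjusted p = 7.90e-07). The cytoplasmic beta subunits of Kv1 channels followed. Kcnab2 was at −2.32 ± 0.077 (adjusted p = 1.29e-06) and Kcnab1 at −2.12 ± 0.10 (adjusted p = 3.55e-06), both above background in both channels, while Kcnab3 was not called at −0.19 ± 0.066.

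The KChIP proteins, calcium-binding partners of Kv4 channels such as that of Kcnd2, were found on both sides. Kcnip2 read 494, 481 and 457 in ES cells and 115, 117 and 97.1 in MEF. Its ratio was 1.95 ± 0.078 (adjusted p = 2.18e-06), with MEF above background on 1 array. Kcnip3, also known as the transcriptional repressor DREAM, read 1538, 1480 and 1512 against 417, 390 and 426, a ratio of 1.72 ± 0.054 (adjusted p = 1.26e-06). A second Kcnip3 probe, which passed the background test for both cell types on every array, gave −0.11 ± 0.075, and over the mean of both probes (0.80) the gene was not called. Kcnip4 was not above background in ES cells and was at least 2.55-fold lower (measured means 6.17 and 8.12, adjusted p = 4.50e-05). Kcnq1ot1, the imprinted noncoding RNA transcribed against Kcnq1, had a ratio of 0.53 ± 0.039 and was not called.

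Probes of the same gene were compared for the 33 members that had more than 1. For 10 of them more than 1 probe was tested, and no gene had probes called with opposite signs. Of the 27 called members, 16 rested on a single probe, 6 had another probe too dim to be tested, and 5 had another tested probe. Of these 5, Kcnk5, Kcnn2, Kcnt2 and Kcnd2 were called in the same direction by both probes, and Kcnip3 was not. The dimmer probes of Kcnn2 and Kcnd2 had a channel not above background on any array, so the sizes of their ratios were not compared. At the dimmer probe of Kcnk5, MEF was above background on 1 array. The untested second probes of Kcnab1, Kcnip4, Kcnj8 and Kcnq5 were above background in neither channel on any array, and that of Kcnj15 in MEF on 2 arrays, so they give no second reading.

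**Figure D4:**
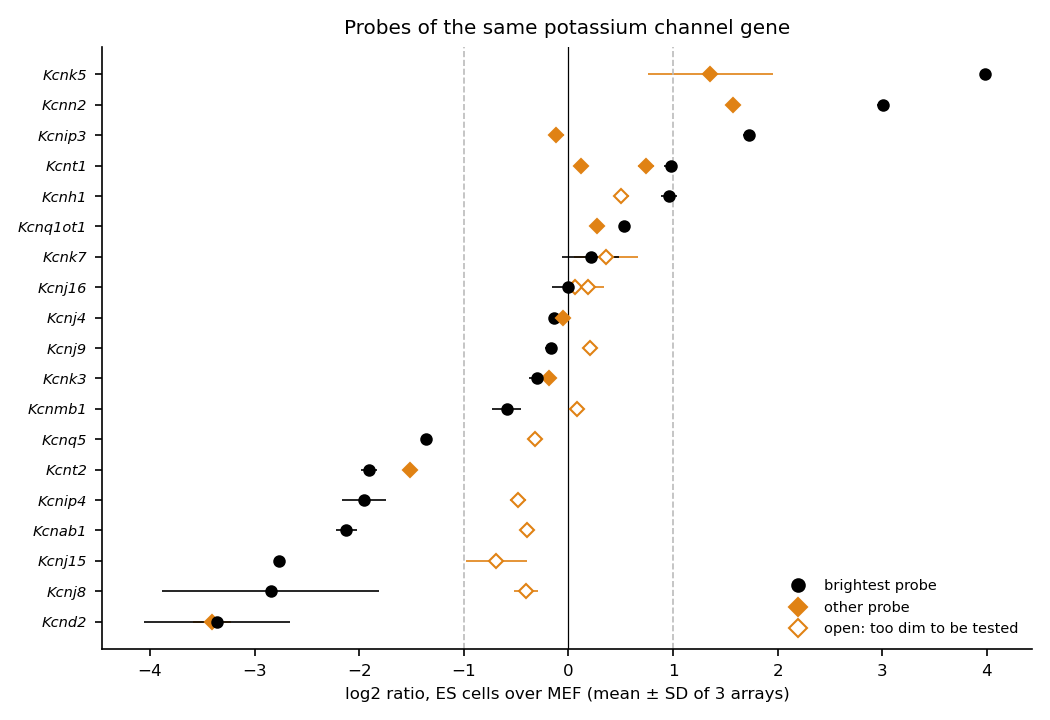
Log2 ratio of ES cells over MEF (x axis, mean ± SD of 3 arrays) of each probe of tested members that have more than 1 probe (y axis). Black circles are the brightest probe, orange diamonds the others, open symbols probes too dim to be tested. Kcnip3 has 1.72 and −0.11, and Kcnk5 has 3.98 and 1.36, the last with MEF above background on 1 array.

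Genes that build or use the potassium gradient were described beside the channels: the sodium and proton pumps with their FXYD regulators, cation-chloride cotransporters, HCN channels, and proteins that assemble with potassium channels. Of 39 such genes on the arrays, 35 were tested. The test called 6 higher in ES cells and 6 lower, beside 20.4% and 22.4% of all genes, and their median was −0.06. Among those called higher, the beta1 subunit gene of the sodium pump, Atp1b1, stood at 2.10 ± 0.0074 (adjusted p = 1.84e-07). Hcn3, a pacemaker channel that passes sodium and potassium, was higher by 1.95 ± 0.027 (adjusted p = 3.20e-07).

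The pump regulators called lower were Fxyd1 (phospholemman) at −3.15 ± 0.038, or 8.85-fold (adjusted p = 2.05e-07), Fxyd5 (dysadherin) at −2.52 ± 0.011 (adjusted p = 1.72e-07), and Fxyd2, the gamma subunit of kidney. Fxyd2 was not above background in ES cells and was at least 4.79-fold lower (measured means 6.79 and 9.16, adjusted p = 4.21e-06). Of the same FXYD family, Fxyd6 was higher in ES cells at 1.69 ± 0.023 (adjusted p = 3.59e-07). Fxyd4, not above background in MEF on any array, was at least 2.95-fold higher (measured means 8.20 and 6.53, adjusted p = 2.88e-06). The cotransporter genes tested, from Slc12a1 to Slc12a7, ranged from −0.85 to 0.45 and none was called.

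**Figure D5:**
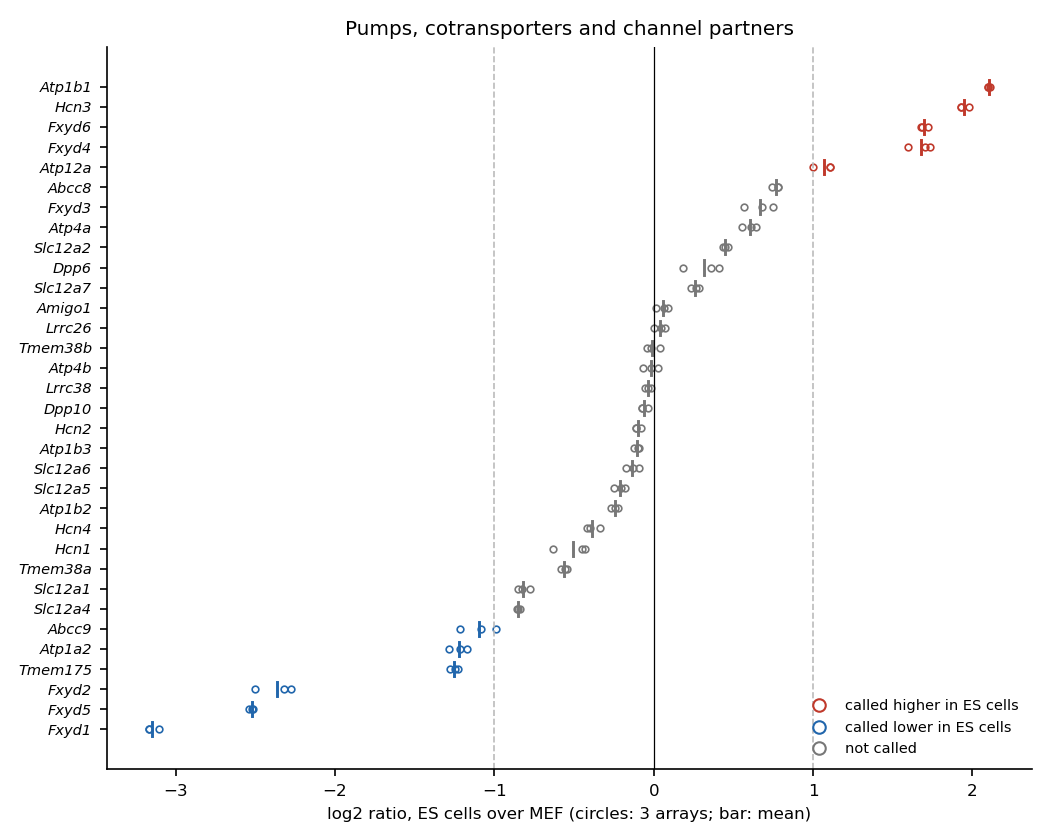
Log2 ratio of ES cells over MEF (x axis) for 33 of the 35 tested pumps, cotransporters and channel partners (y axis). Circles are the 3 arrays, bars the mean, dashed lines the 2-fold minimum; Atp1b1 at 2.10 and Fxyd1 at −3.15 mark the ends of those drawn, and the cotransporters lie within 2-fold.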

How the data were processed

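RNA of 3 ES cell replicates was hybridised against MEF RNA on 3 arrays, which lay on 1 slide, so slide and scan could not be tested as batches. The design text has a differing name for the Cy5 RNA, which was taken as MEF from the sample labels. Images were read by Agilent Feature Extraction 9.5.3.1, per the file headers. The deposited spot and background intensities are pixel brightness without background subtraction, and the processed intensities and the log10 ratio (red over green, so MEF over ES cells) come from that software, per the file headers. The authors' deposited log2 value table matched the sign-turned ratio of processed signals (within 0.01 for 85.3% to 87.7% of probes, r across probes 0.998, 1.00 and 0.999). Its column medians are 0.213, 0.0859 and −0.143, so it is log2 of ES cells over MEF and not centred; what was done to the other probes stays unknown. Probe coordinates are of mm7, per the file headers.

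In R 4.3.3, limma 3.58.1 removed background from mean signals (normexp, offset 50) and normalized each array by loess, with control spots at weight 0. The offset shrinks ratios of dim genes. Outlier spots (117 to 144 per array) were left out. Median spot signals were 398 to 421 (ES cells) and 381 to 391 (MEF), and 2 gene spots were saturated. The number of arrays limits the precision. Probes were named by accession, symbol or synonym through RefSeq's GRCm38.p6 table, else as in the file. Mean log2 ratios were tested against 0 with limma (lmFit and eBayes, Benjamini-Hochberg over 19477 genes). In a test on simulated data with known ratios, the procedure was checked for recovery. The members and lists were chosen with earlier results of these data known.

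Genes were named by rule: in each family the 3 highest and 3 lowest called members; every called member not above background in the other channel; members with probes called in opposite directions; the 3 smallest ratios above background in both channels; and the 3 highest and 3 lowest called partners. Kcnk6, Kcnk13, Kcnmb1, Kcnt1, Kcnh1, Kcnj4, Kcnj6, Kcnh2, Kcns3, Kcnab1, Kcnab3, Kcnq1 and Kcnq1ot1 were chosen after their values were seen. So were Abcc9, Fxyd4, Fxyd6 and the cotransporters, and members named for their detection. A few genes of the lists enter the counts but are not named, drawn or otherwise reported here. A planned count of filter motifs in protein sequences was not made, and the motif was sought in the probes instead. Alternatives were other background corrections, centring, filters, probe rules, tests, the authors' table and leaving out each array, and, chosen after seeing the data, the gene names as in the files.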

Additional observations from a re-analysis of the deposited data

How the results depend on the processing

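Of the 27 called members, 13 kept their call under all 17 alternatives. Another 11 kept it under the 16 that test them and are not tested when both channels must be above background. None reversed. Kcnip3 lost it with the mean of probes (0.80), and Kcnma1 with limma's treat, as did 1 member not named here. The count of members called higher, 8, was 13 by the authors' value table and 13 from the processed signals of the scanner, 5 when both channels had to be above background and 21 without the fold minimum. The count called lower, 19, was 10 when both channels had to be above background, a filter that tests fewer genes. Of the partners, 12 were called, 7 with both channels above background and 30 without the fold minimum. Leaving out 1 array gave 8 to 9 members higher and 19 lower. Values near 0 changed sign: Kcnj16 to 0.018 without background subtraction and to 0.049 with median centring, Kcnj4 to 0.098 and Kcnk12 to 0.018 with median centring. Without 1 array Kcnj16 ranged from −0.095 to 0.044 and Kcnk12 from −0.011 to 0.0027. Median centring moved the median of all genes from −0.05 to 0.11. Over all genes, 3969 higher and 4372 lower calls became 4836 and 3760 with it, and 8948 and 9644 without the fold minimum. The cause of the other changes was not tested. The ES cell and MEF signals of each array were paired within its ratio, and with 1 group of arrays no further pairing was possible. Dim genes are the limit: 31 members could not be tested, and 12 called members have a channel not above background on every array.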

Other observations

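Some probes that carry clone names in the files were matched through RefSeq, by accession or synonym, to potassium channel genes, and stood outside the naming rule. A match by synonym need not mean that the probe reads the RNA of the channel. The Kcng1 probe, a silent Kv subunit gene, was above background in both channels with a ratio of −0.32 ± 0.023. A probe at the Kcnmb4 locus, named Kcnmb4os2 as an opposite-strand transcript, was above background in both channels and had −0.76 ± 0.020, beside −4.40 for Kcnmb4. A further probe matched to Kcnj15 was above background in MEF only and had −0.56 ± 0.14, beside −2.77 for the probe that stood for the gene. By its coordinates the further probe lies on the minus strand, opposite to Kcnj15, so it need not read Kcnj15 RNA. The probe of Kcnk9 (TASK-3) and 1 of 2 probes of Kcnk10 (TREK-2) were above background in neither channel on any array.

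A probe named Kcnq1 in the files has an accession of Kcnq1ot1 and was counted there, with a ratio of 0.28. The Kcnq1 probe that remained gave 0.16 ± 0.034.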
